A study of Mus musculus with 4 samples.

Results

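The MYC locus and the gene-poor sequence on either side of it were examined here through the accessible regions, or ATAC-seq peaks, that the authors deposited for HEK293 cells. All peaks on chromosome 8 between positions 126500000 and 129800000 of GRCh38 were taken, a stretch of 3.3 Mb that holds MYC, which starts at 127735434, and PVT1 downstream of it. The rule used positions only and no measured value. It gave 32 of the 48751 peaks of the list, and 0 of them crossed an edge of the stretch. Chromosome 8 as a whole held 1688 peaks.

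MYC encodes a basic helix-loop-helix leucine zipper transcription factor that binds DNA as a heterodimer with MAX and drives genes of cell growth and proliferation. PVT1 is a long non-coding RNA gene that follows MYC on the same strand, and its promoter and body are known to hold regulatory elements that act on MYC in some cell types. The wide intervals with few or no protein-coding genes around both are known for enhancers that differ between tissues, and NF-kB is among the factors known to act at the MYC promoter. An ATAC-seq peak marks DNA that the Tn5 transposase could reach and cut, and says nothing by itself about which gene, if any, the element serves.

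The libraries came from HEK293, an established human embryonic kidney line that is easy to transfect. The libraries form groups of 2 each, one from cells given the TRAFTAC against NFkB and one from cells given the scrambled TRAFTAC, a control oligonucleotide without the NFkB motif. The cells of all 4 libraries were given the same other agents, namely 1 µg/mL of a plasmid for an HA-tagged HaloTag7-dCas9 fusion and 25 nM TRAFTAC during a transfection of 6 h, followed by 19 h with 5 ng/mL TNF-α and 25 µM HP14, the PROTAC that binds the HaloTag. The labels name DMSO beside HP14 without assigning it to a library, and the study describes a DMSO control for the protein blot only. All cells also received 200 units/mL of DNase in the 30 min before harvest. Each library was made from 50000 cells with 8 PCR cycles. The fusion protein was expressed transiently, the libraries are of 1 cell line, and the labels do not say whether the replicates were separate cultures. An untreated or unstimulated library was not analysed here.

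The peaks were called on the 4 libraries merged. Every value below is therefore a pooled value of both TRAFTACs, with 0 columns for single libraries, and it permits neither a test of one TRAFTAC against the other nor an estimate of replicate error. Intervals given for shares (95% Wilson) and for medians (95%, from order statistics) treat the peaks as a random sample and cover no replicate error. Peaks that neighbour each other are, however, not independent. The sample labels name the mouse as organism, whereas HEK293 is human. Of the 32 peaks, 3 lie past position 129401213, where chromosome 8 of the mouse assembly GRCm38 ends. The list also holds 3163 peaks on chromosomes 20 to 22, which the mouse does not have, so its coordinates are human. Gene positions other than the MYC start were not used here, so peaks are placed by the distance of their summit from that start, with downstream in the direction of MYC transcription.

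For each peak the list gives the fold enrichment at the summit, a linear ratio of the stacked fragments (the summit pileup) to a local background, and the −log10 of its q-value. Both parts of the ratio were recovered from the fold enrichment and the listed p-value. This worked for all 32 peaks and for 48727 peaks of the list (99.95%). The recovered background cannot fall below 6.32 fragments, the genome-wide value, and a peak at this value lay in surroundings with no more fragments than the genome average. Pileups are counts over the 4 libraries together. The counting error of the smallest pileup in the stretch, 21 fragments, is a standard deviation of 4.58 fragments or 21.8%.

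The peaks of the stretch were about as numerous as in the median window of chromosome 8, and their fold enrichment was lower in the median, a difference that was not tested. The stretch held 9.70 peaks per Mb, against 11.7 on the rest of chromosome 8, 16.0 on chromosomes 1 to 22 and X together, 7.26 on chromosome 13 and 7.45 on chromosome 18. When chromosome 8 was cut into 43 consecutive windows of 3.3 Mb, 22 windows had fewer than 32 peaks and 20 had more. The windows ranged from 8 to 103 peaks with a median of 31, and the neighbours of the MYC stretch held 60 peaks on the upstream side and 36 on the downstream side. Over chromosomes 1 to 22 and X, 374 of 906 such windows had fewer peaks than the MYC stretch. These include 31 windows with 0 peaks, and the densities per Mb of whole chromosomes count such empty sequence as well. The number of peaks therefore placed the stretch near the middle of its own chromosome.

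**Figure D1:**
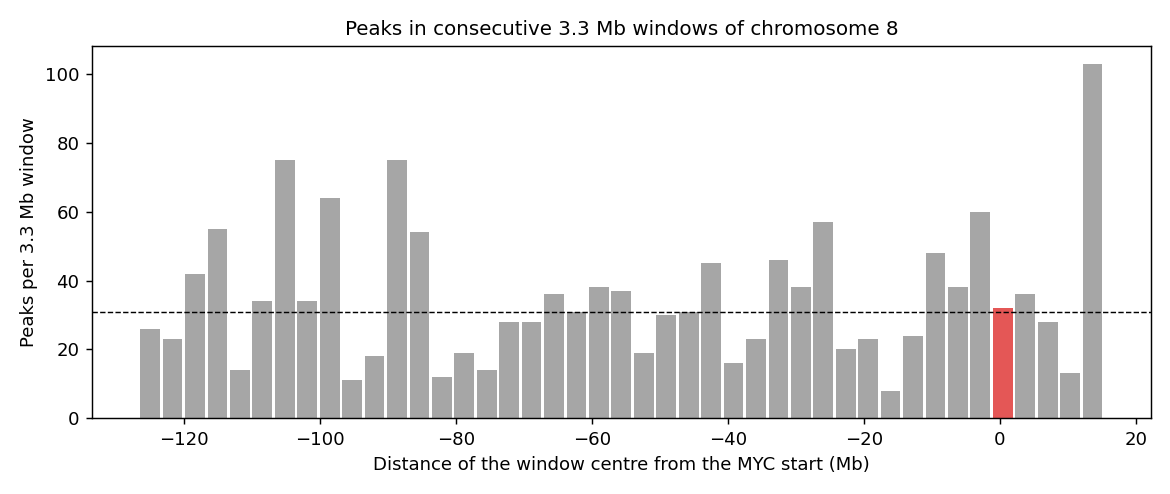
Peaks in 43 consecutive windows of 3.3 Mb along chromosome 8, plotted by the distance of the window centre from the MYC start in Mb. The red bar is the window that holds MYC, with 32 peaks, and the dashed line is the median of the windows, 31 peaks.

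Fold enrichment had a median of 3.79 in the stretch (95% interval 3.42 to 5.20, n = 32), against 5.56 (5.33 to 5.79, n = 1656) on the rest of chromosome 8 and 5.63 (5.60 to 5.71) on chromosomes 1 to 22 and X. The median −log10 q-value was 10.9 (6.87 to 20.1), against 20.3 (18.6 to 22.6) on the rest of the chromosome. The median pileup was 34 fragments (26 to 54), against 51 (48 to 53). For fold enrichment the intervals of the stretch and of the rest of chromosome 8 did not overlap, whereas for the −log10 q-value and the pileup they did. Peak width had a median of 499 bp (394 to 856 bp), and this interval included the 583 bp of the rest of chromosome 8.

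Few peaks of the stretch had high values, but the intervals of these shares were wide. A −log10 q-value of at least 100 was reached by 2 of the 32 peaks (6.25%, interval 1.73% to 20.1%), against 21.5% of all peaks in the list. On the rest of chromosome 8 the share was 19.4%, which lies inside the interval. A fold enrichment of at least 10 was reached by 3 peaks (9.38%, 3.24% to 24.2%). This interval included both the 21.8% of all peaks and the 21.3% of the rest of chromosome 8. For −log10 q-values from 5 upwards the stretch was close to the list, with 27 peaks (84.4%, 68.2% to 93.1%) against 86.5%. The same held for a width of at least 1000 bp, with 6 peaks (18.8%, 8.89% to 35.3%) against 22.9%.

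The 32 peaks were spread unevenly. The 3 widest gaps between neighbouring peaks together took up 1969 kb, or 59.7% of the stretch, and the 7 gaps of at least 100 kb took up 81.3%. Matching shares for other stretches were not computed, so this unevenness is not shown to be particular to the locus. The quartiles of the gaps were 8.92 and 61.9 kb, against 8.38 and 78.4 kb on the rest of chromosome 8. The median gap was 20.6 kb (10.9 to 55.0 kb, n = 31), against 27.0 kb (24.3 to 30.6 kb) on the rest of chromosome 8. This median was 43.2 kb with only peaks of −log10 q-values from 5 upwards, and 32.3 kb with only peaks whose background was under 2 times the genome-wide one. Peaks covered 0.681% of the sequence of the stretch, against 0.836% of the rest of the chromosome.

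**Figure D2:**
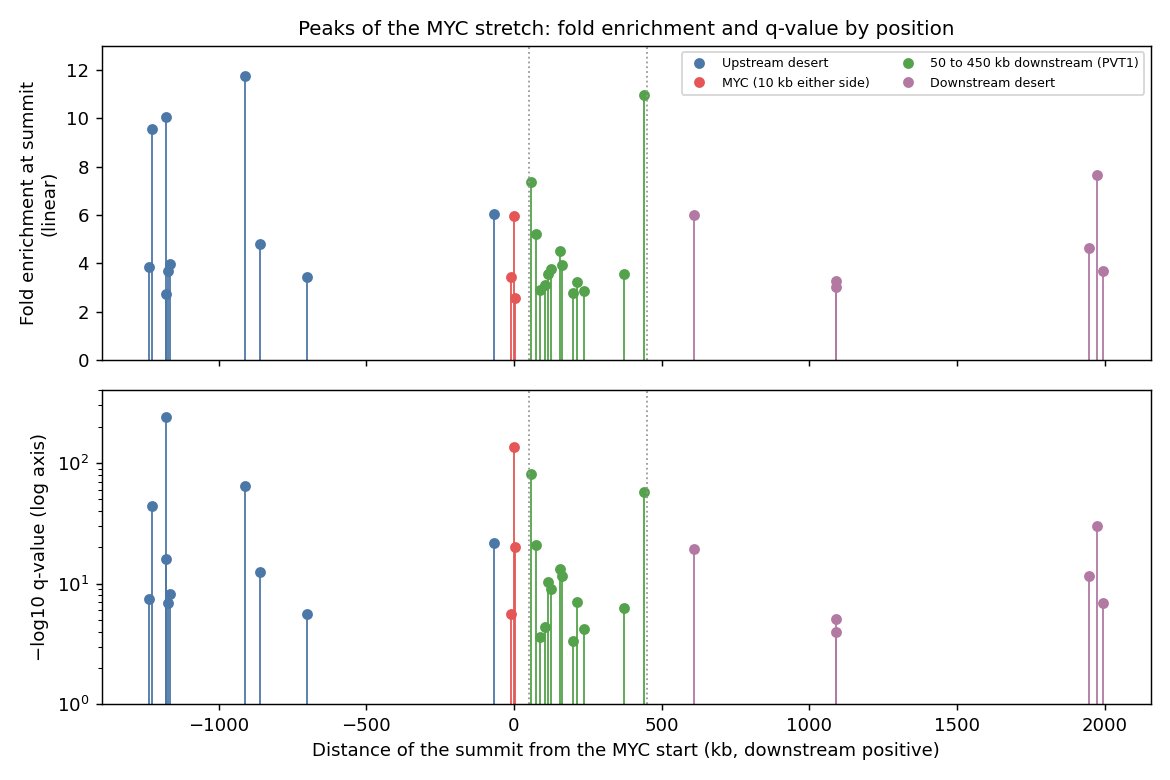
Fold enrichment at the summit (upper panel, linear) and −log10 q-value (lower panel, log axis) of the 32 peaks, by the distance of the summit from the MYC start in kb. Each point is 1 peak of the pooled libraries, colours give the zone and dotted lines mark 50 and 450 kb downstream. The peak at the MYC start has the second highest −log10 q-value, 136, but a fold enrichment of only 5.94, and the widest empty interval lies between 1091 and 1947 kb downstream.

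At MYC itself, a peak ran across the start of the gene, from 127735219 to 127736803, which is from 215 bp upstream to 1369 bp downstream of the start. It was 1585 bp wide, wider than 94.8% of all peaks in the list. Its summit lay 723 bp downstream of the MYC start and held 327 fragments, an average of 81.8 per library with a counting standard deviation of 18.1 fragments (5.53%) on the pooled value. Of the peaks in the list whose pileup was recovered, 91.7% had a smaller one. The −log10 q-value was 136, the second highest of the stretch. The fold enrichment of 5.94 was in contrast only the 9th highest of the 32, and 53.0% of all peaks in the list had a lower one.

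The difference between these ranks came with the local background. At the MYC start it was 54.2 fragments, 8.58 times the genome-wide value, and 97.8% of the peaks in the list had a lower one. Set against the genome-wide background, the same pileup gave an enrichment of 44.8-fold and the second rank in the stretch. The peaks' own fragments lie within the interval from which a local background is normally taken, and counting both MYC peaks at summit height over their whole width in a 10 kb window would give up to 74.7 fragments, more than the 54.2 recovered. The share of this background that comes from outside the peaks cannot be told apart from the peaks' own fragments with the list.

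A second peak followed from 127737370 to 127738959, or 1936 to 3525 bp downstream of the start. It was separated from the first by 566 bp, and its summit lay 2542 bp downstream of the start and 1819 bp from the first summit. It held 144 fragments (counting SD 12), so that the pileup at the start peak was 2.27 times as high. Its width of 1590 bp was about that of the start peak. Its fold enrichment of 2.54 was the lowest of the 32 peaks, over the highest background, 56.1 fragments, while its −log10 q-value of 20.1 ranked 10th. Together the pair spanned 3741 bp.

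A small peak stood upstream of MYC, from 127725833 to 127726214, with its summit 9.34 kb before the start. It was 382 bp wide and held 24 fragments over the genome-wide background, for a fold enrichment of 3.42 and a −log10 q-value of 5.65. Thus 2 of the 3 peaks within 10 kb of the MYC start had a background far above the genome-wide one and 1 was at it. The interval from 10 to 50 kb downstream of the MYC start held 0 peaks, and the gap after the second MYC peak measured 55.0 kb.

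The zone from 50 to 450 kb downstream, taken here as the stretch along PVT1, held 13 of the 32 peaks (40.6%, 25.5% to 57.7%) in 12.1% of the length. This is 32.5 peaks per Mb, against 8.16 in the upstream and 3.72 in the downstream desert. The ends of the zone were set at round distances and are not the ends of the gene. The deserts are likewise named by distance alone, and whether a peak in them lies at a gene start was not examined.

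The first peak of this zone, with its highest pileup and −log10 q-value, ran from 127793984 to 127796092, with its summit 59.1 kb downstream of the MYC start. At 2109 bp it was the widest of the 32 and wider than 98.6% of all peaks in the list. Its summit held 160 fragments (counting SD 12.6), and its −log10 q-value of 80.8 ranked 3rd in the stretch. The background was 20.8 fragments and the fold enrichment 7.38. The start peak of MYC was higher in pileup by a difference far beyond the counting error of both, but lower in fold enrichment, because its background was higher. A second wide peak followed 13.2 kb further on, from 127809267 to 127810464, 1198 bp wide, with 54 fragments, a fold enrichment of 5.20 and a −log10 q-value of 20.8.

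The next 9 peaks, with summits from 88.4 to 235 kb downstream, formed a series of low peaks. Their pileups ranged from 21 to 42 fragments with a median of 33, their fold enrichment from 2.77 to 4.51 with a median of 3.23, and their −log10 q-values from 3.33 to 13.1. Gaps between them ranged from 7.31 to 35.0 kb. All but 1 were narrower than 1000 bp. The exception, from 127898486 to 127899703 and 164 kb downstream, was 1218 bp wide with 41 fragments at its summit. The highest fold enrichment of the series, 4.51, belonged to a peak of 333 bp from 127890008 to 127890340. The lowest −log10 q-value of the whole stretch, 3.33, belonged to a peak of 451 bp from 127934729 to 127935179 with 21 fragments. Of the 5 peaks of the stretch with a −log10 q-value under 5, 4 were in this series. With counting errors of 4.58 to 6.48 fragments on these pileups, the order among peaks of similar pileup could not be read from the list.

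Beyond a gap of 138 kb, the zone held 2 more peaks. The peak from 128108983 to 128109376, 374 kb downstream, held 25 fragments with a fold enrichment of 3.55 and a −log10 q-value of 6.25. The peak from 128176546 to 128177415, 442 kb downstream and 870 bp wide, was of another kind. It held 83 fragments over a background of 6.67, and its fold enrichment of 10.96 was the second highest of the stretch, with a −log10 q-value of 57.5. A zone that ended at 400 kb would leave this peak in the downstream desert, and one that ended at 350 kb would leave both there.

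**Figure D3:**
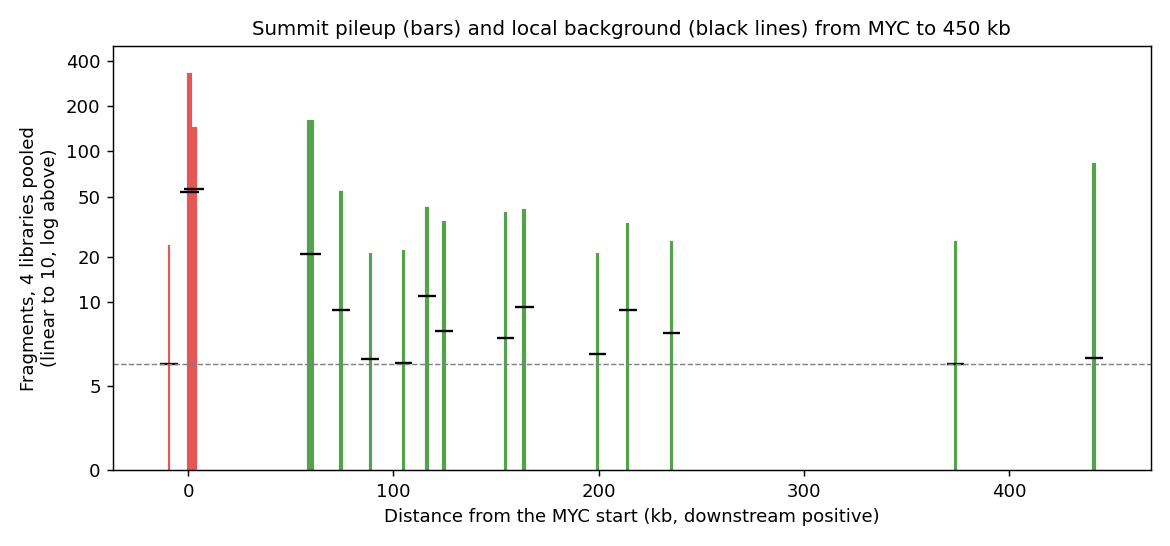
Summit pileup (bars, drawn at the width of each peak) and recovered local background (black lines) of the peaks from 10 kb upstream to 450 kb downstream of the MYC start, in fragments of the 4 libraries pooled, on an axis that is linear to 10 and logarithmic above. The dashed line is the genome-wide background of 6.32 fragments, and red bars are the MYC peaks (327 and 144 fragments, and 24 upstream). Green bars are the peaks from 50 to 450 kb, most of which have a background above the dashed line, some only slightly.

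The local background also differed along the stretch. It was above the genome-wide value in 12 of the 13 peaks of the PVT1 zone and in 4 of the 16 desert peaks, against 66.1% of all recovered peaks in the list and 18 of the 32 here. In the downstream desert 0 of 6 peaks were above it. Several of these backgrounds were barely above 6.32 fragments. In the PVT1 zone they were 6.63, 6.41, 6.95 and 6.67 at 88.4, 105, 199 and 442 kb downstream. In the upstream desert they were 6.64 and 7.13 at 911 and 66.6 kb before MYC. The counts also include the peaks' own fragments, and a difference between the zones was not tested. The 5 peaks with at least 100 fragments at their summit were also the 5 with the highest background, from 20.8 to 56.1 fragments. Among the lower peaks, the peak 88.4 kb downstream had a background of 6.63 with 21 fragments at its summit, and the peak 911 kb upstream had 6.64 with 89. The fragments of the peaks themselves were then subtracted, counted generously at summit height over the whole width in a 10 kb window around the summit, which is the peak caller's usual window and is not stated for this list. The remainder still exceeded the genome-wide value for only 4 of those 12 peaks of the PVT1 zone, all in the series of low peaks, and for 0 desert peaks. At 116 kb downstream 7.51 of 11.1 fragments remained, at 155 kb 6.56 of 7.86, at 214 kb 7.78 of 9.53, and at 235 kb 7.38 of 8.18. Peaks at the genome-wide value could not keep such a remainder by construction, nor could high and wide peaks whose own fragments so counted exceed the background, so the zones cannot be compared by it.

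**Figure D4:**
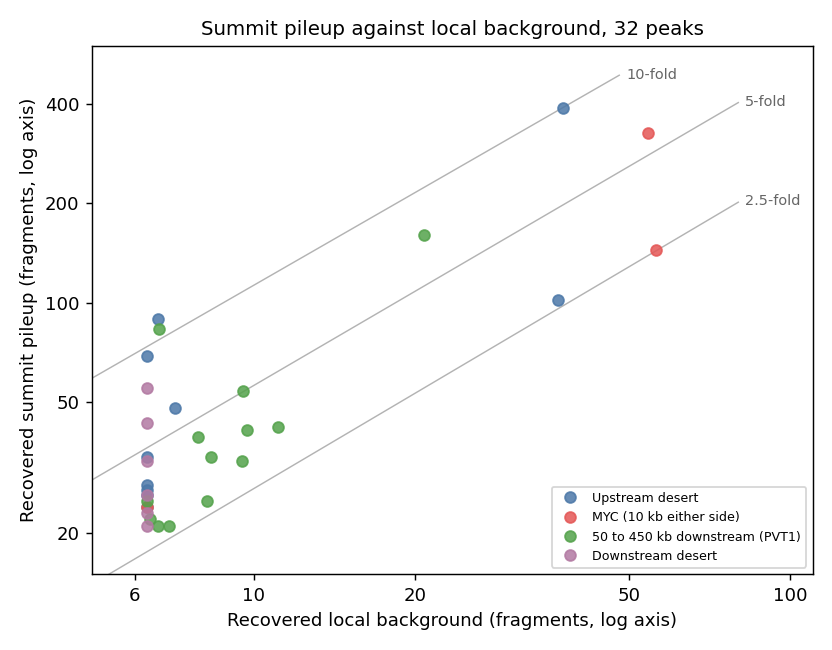
Recovered summit pileup against recovered local background of the 32 peaks, in fragments of the pooled libraries, both on log axes, with grey lines of equal fold enrichment. Desert peaks stack at the genome-wide background of 6.32 fragments except 4. Peaks from 50 to 450 kb downstream lie to its right, some only slightly, except 1. The pair at MYC lies furthest right, at 54.2 and 56.1 fragments.

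The upstream desert, from the edge of the stretch to 10 kb before MYC, held 10 peaks in 1225 kb. Its name rests on distance only, so any of its peaks, high ones included, may lie at the start of a gene. The first 6 stood together within 71.0 kb near the upstream edge, from 1234 to 1163 kb before the MYC start. Among them was the most significant peak of the stretch, from 126557605 to 126558856, whose −log10 q-value was 240. It was 1252 bp wide, its summit held 388 fragments against a background of 37.7, and its fold enrichment was 10.05, so that both its pileup and its fold enrichment were above those of the MYC start peak. It followed 528 bp after a lower peak from 126556356 to 126557076 with 102 fragments, a background of 36.9 and a fold enrichment of 2.72. This arrangement of a high and a low peak less than 1 kb apart was also that of the MYC pair, with the low member here on the upstream side. How often close pairs elsewhere in the list differ in height in this way was not computed. The other 4 peaks of the group lay at the genome-wide background, and among them the peak from 126510353 to 126510813 had the highest fold enrichment, 9.57, with 69 fragments. The remaining 3, from 126501063 to 126501523, from 126564341 to 126564799 and from 126571715 to 126572061, held 27, 26 and 28 fragments.

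Between this group and the end of the upstream desert stood 4 peaks. The peak from 126824330 to 126825209, 911 kb before MYC, had the highest fold enrichment of all 32, 11.77, with 89 fragments, a width of 880 bp and a −log10 q-value of 64.2. The peaks 859 and 700 kb before MYC were narrow, 333 and 317 bp, with 34 and 24 fragments and fold enrichments of 4.78 and 3.42. A gap of 632 kb followed, from 127035977 to 127668194, with no peak. Gaps at least this wide numbered 33 of the 1687 gaps on chromosome 8 (1.96%), for a gap picked as the second widest of the 31 in the stretch. The peak that closed it, from 127668195 to 127669132, lay 66.6 kb before MYC, was 938 bp wide and held 48 fragments, for a fold enrichment of 6.03 and a −log10 q-value of 21.6.

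The downstream desert held 6 peaks in 1615 kb, and all 6 lay at the genome-wide background. The first, from 128343919 to 128344236, 609 kb downstream, was 318 bp wide with 43 fragments and a fold enrichment of 6.01. After a gap of 481 kb a pair of low peaks stood 313 bp apart, from 128825679 to 128826261 and from 128826575 to 128827069, with 21 and 23 fragments and fold enrichments of 3.01 and 3.28. The widest gap of the stretch followed, 855 kb from 128827070 to 129682057. Gaps at least as wide numbered 21 on chromosome 8 (1.24%) and 360 of the 48306 on chromosomes 1 to 22 and X (0.745%). The gap was picked as the widest of 31, and that choice by itself favours a small share.

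The last 3 peaks stood within 46.9 kb, from 1947 to 1993 kb downstream. The middle one, from 129707790 to 129708607, was 818 bp wide and held 55 fragments, with a fold enrichment of 7.65 and a −log10 q-value of 30.2. Its neighbours were narrow, 259 bp from 129682058 to 129682316 and 248 bp from 129728663 to 129728910, with 33 and 26 fragments and fold enrichments of 4.65 and 3.69. The narrowest peak of the stretch was the last of these.

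By zone, the desert peaks were sparser than those along PVT1, and their medians of width and height had wide intervals. Width had a median of 461 bp over the 16 desert peaks (318 to 818 bp) and 532 bp over the 13 peaks of the PVT1 zone (394 to 1198 bp). The median fold enrichment was 4.30 (3.42 to 7.65) in the deserts and 3.55 (2.88 to 5.20) in the PVT1 zone, and the median pileup was 33.5 (26 to 69) and 34 fragments (22 to 54). For each of these measures the intervals of both zones overlapped. Of the 3 peaks with a fold enrichment of at least 10, 2 were in the upstream desert and 1 at the far end of the PVT1 zone, and 0 were at MYC.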

How the data were processed

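Adapter removal by the authors used Trimmomatic, alignment Bowtie2 and duplicate marking Picard, and MACS2 then called the peaks from paired-end fragments. The labels name GRCh38.p10. The deposited list gives each peak's position, a score (10 times the −log10 q-value, not used here), the fold enrichment (a linear ratio), the −log10 of the p-value and q-value, and the summit. The methods state that blacklisted regions were removed. For its analyses the study describes consensus peaks, joined from calls on individual samples and resized to a common width. The list used here, called on the libraries merged and with peaks of unequal width, is therefore not shown to be the peak set behind the study's results. Further MACS2 settings for this list, such as its q-value threshold and background window, were not given in the sources used here. The depth per library is unknown from the list.

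Positions were made 1-based. The pileup and background were recovered with a pseudocount of 1 in the fold. A search found the integer pileup whose Poisson tail gave the listed −log10 p-value within 0.001. The search was tested on data simulated with the same formula. That test checks the search only and cannot show that the peak caller used this formula. A background within 0.1% of the lowest was taken as genome-wide. The last peak of each chromosome set its length, and peaks were put in windows by summit. Python 3.11.15, numpy 2.4.6, pandas 2.3.3, scipy 1.17.1 and matplotlib 3.10.9 were used.

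The stretch, its zones and the tests were chosen with earlier results of these data known. The named genes were those of the rule, MYC and PVT1. An annotation and sequence of GRCh38 were not used here, so PVT1 stands for the zone from 50 to 450 kb downstream of the MYC start, and no sequence is printed. Single peaks were named by place at MYC, height, width and the widest gaps, and the rest after their values were seen. Alternatives were a minimum −log10 q-value of 5, merging within 1 kb, a stretch shorter by 500 kb at each end, a background under 2 times the genome-wide one, placing by midpoint and a MYC zone of 5 kb either side. Ends of the PVT1 zone at 400 and 350 kb were added after seeing the data.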

Additional observations from a re-analysis of the deposited data

How the results depend on the processing

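Of 66 values under an alternative, 61 stayed within 1.5 times the count, or within the 95% interval of the median, or were equal. Some of them could not change, such as the count of the MYC zone under another end of the PVT1 zone. The number 61 is therefore no measure of robustness. With the stretch shortened by 500 kb at each end, the number of peaks was 21 in place of 32, with 2 in the upstream and 3 in the downstream desert, by the construction of the shorter stretch. With only peaks whose background was under 2 times the genome-wide one, the MYC zone kept 1 of 3 peaks, and the peak at the MYC start gave no value because its own background is higher. Merging peaks within 1 kb joined the pair at MYC into 1 peak of 3741 bp in place of 1585 bp. With a minimum −log10 q-value of 5, 27 peaks remained and the PVT1 zone held 9 in place of 13. The median fold enrichment ranged from 3.55 to 3.96 and the median gap from 18.2 to 43.2 kb. PVT1 zones ending at 400 and 350 kb held 12 and 11 peaks. No paired analysis was possible because no library has values of its own, and for the same reason leaving out single replicates was not run. The pooled depth limits the low peaks, and 22 of the 32 had under 50 fragments. Of all recovered peaks in the list, 43.7% had under 48 fragments and 48.5% under 54.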

Other observations

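Identical values recur among the low peaks. The peaks 700 and 9.34 kb before MYC both had 24 fragments over the genome-wide background and so the same fold enrichment, 3.42, and the same −log10 q-value, 5.65, which 667 peaks of the list share. The peaks 1171 kb before and 1993 kb after MYC likewise shared 26 fragments, 3.69 and 6.87, with 578 peaks of the list in all. At the genome-wide background the fold enrichment moves only in steps of 1 fragment, so equal values there are equal counts.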
